A study of Mus musculus with 3 samples.

Results

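Pantr1, a long noncoding RNA gene, and Pou3f3, the transcription factor gene beside it on mouse chromosome 1, were examined in sorted embryonic kidney cells. Members were found by name, as the probes whose platform symbol was that of either gene. This gave 2 genes with 1 probe each, of 15096 genes with a single symbol on the array. Pantr1 was chosen by its measured ratio, which was known from these arrays, so its values are a description and were not tested. The ratio of Pantr1 was high on all 3 arrays, whereas Pou3f3 had no value on any of the 3. Whether the pair moved together could therefore not be read from these data.

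Each of 3 arrays held RNA of GFP+ cells in channel 1 and of GFP- cells in channel 2, taken from kidneys of HoxB7-GFP transgenic mice at 15.5 days post coitum, both sexes pooled. The Hoxb7 promoter drives green fluorescent protein in the ureteric tree, the branching epithelium that becomes the collecting ducts, and the GFP- fraction is a mixture of all remaining kidney cells. No wild-type or untreated group enters, and nothing in the labels shows if each array had its own pool of embryos. Values are log2 ratios of channel 1 to channel 2, likely GFP+ over GFP-, since the dyes are not stated. Higher and lower are given for that direction.

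Pou3f3, also called Brn1, belongs to the POU family, whose proteins bind DNA through a POU-specific domain joined to a homeodomain. It is known for its part in cortical neurons and, in kidney, in the loop of Henle and the distal nephron. Pantr1, older names linc-Brn1a and Pou3f3os, is a noncoding transcript read away from the start of Pou3f3 on the opposite strand. Such head-to-head pairs of a noncoding RNA and a developmental regulator are frequent in mammalian genomes, and their members are often, though not always, found in the same cells.

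The DNA before the start of Pou3f3 and around the near end of Pantr1 is shown because these ends of the genes face each other. RefSeq (GRCm38.p6) lists Pou3f3 on the plus strand, and the first sequence holds the 250 bases before its start, chr1:42695518-42695767, with each match to CCAAT, or on the other strand ATTGG, in capitals. The promoter table used here held Pou3f3, 1 of the 2 members. The second sequence, chr1:42694658-42694907 on the plus strand, lies before a start of the predicted noncoding gene Gm46091, and its capitals mark the 168 bases inside the span of Pantr1.
Pou3f3: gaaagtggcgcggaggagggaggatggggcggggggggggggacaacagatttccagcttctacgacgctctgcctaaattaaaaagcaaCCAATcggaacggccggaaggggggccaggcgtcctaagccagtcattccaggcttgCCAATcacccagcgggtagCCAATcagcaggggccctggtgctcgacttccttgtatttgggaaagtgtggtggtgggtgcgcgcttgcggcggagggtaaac
Gm46091: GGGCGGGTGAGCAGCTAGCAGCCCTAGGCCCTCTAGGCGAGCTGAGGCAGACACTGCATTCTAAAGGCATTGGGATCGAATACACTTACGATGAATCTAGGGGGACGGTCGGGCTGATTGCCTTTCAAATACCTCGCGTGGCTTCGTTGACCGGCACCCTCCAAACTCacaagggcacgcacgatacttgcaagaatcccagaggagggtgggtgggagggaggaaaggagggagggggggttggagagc

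CCAAT, a common promoter element, was found at 3 places in the Pou3f3 window. Of 32851 windows of that length before RefSeq starts, 33.8% held at least 1 match and 2.79% held 3 or more. The octamer ATGCAAAT, or on the other strand ATTTGCAT, is the classic binding sequence of POU proteins. It was not among the letters of this window, and 1.60% of all windows held it. TATAAA, or on the other strand TTTATA, was not found either, against 12.4% of windows, and GGGCGG, or on the other strand CCGCCC, occurred at 1 place, against 32.7%. G and C made up 60.8% of the window, and 73.9% of all windows had a lower share. These matches describe letters and show no binding.

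Pantr1 had a log2 ratio of 2.78 on array 1, 2.84 on array 2 and 2.78 on array 3. These are 6.86-fold, 7.15-fold and 6.88-fold higher in GFP+ cells. The mean was 2.80 ± 0.03 (SD, n = 3), or 6.96-fold, and the arrays spanned only 0.059 on the log2 scale. All 3 arrays thus gave nearly the same ratio, although over all 4399 probes with 3 values array 1 stood apart (Pearson's r = 0.076 with array 2 and 0.274 with array 3, against 0.879 between arrays 2 and 3). Without array 1 the mean of Pantr1 was 2.81. Probes are not independent replicates, and these correlations describe the arrays.

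**Figure D1:**
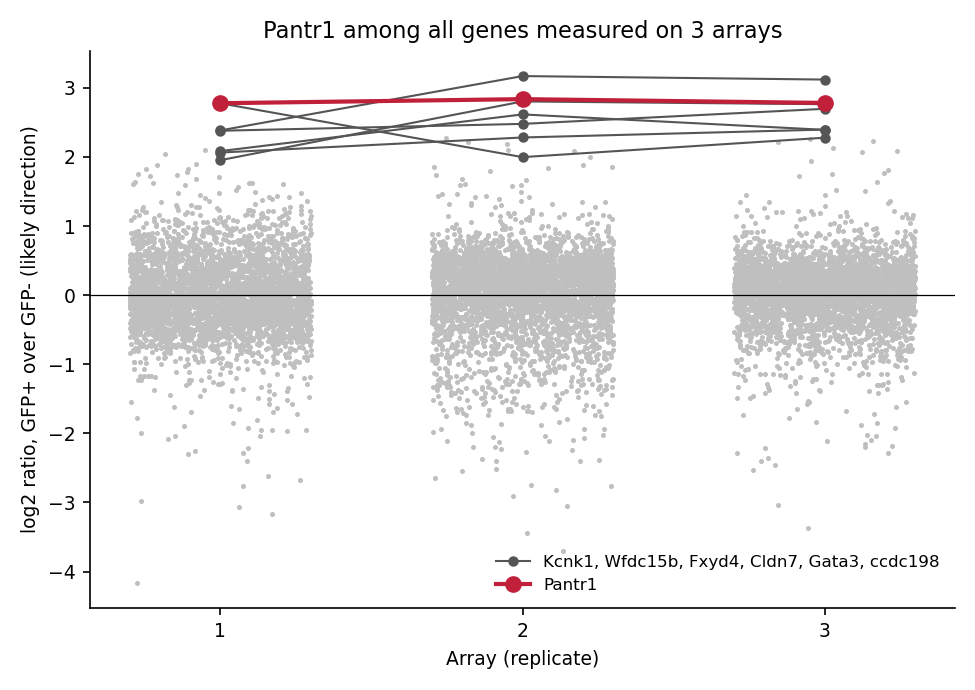
Log2 ratio (y axis) of every gene with values on all 3 arrays (grey points, spread sideways at random) on arrays 1 to 3 (x axis), with Pantr1 in red and the 6 genes nearest to it in rank as dark lines. Pantr1 stays between 2.78 and 2.84, while Gata3 and Kcnk1 change place between arrays.

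Among the 3915 genes with values on all 3 arrays, Pantr1 ranked 2 from the highest by its mean. On array 1 it ranked 1, just above Gata3, whose ratio there was also 2.78. On arrays 2 and 3 it ranked 2, below Kcnk1, which encodes a potassium channel with paired pore domains. By the lowest of a gene's 3 values Pantr1 ranked 1, at 2.78, and the next gene reached 2.38. When genes with a value on the array in question were ranked whatever the other arrays held, Pantr1 was 1 of 4500 on array 1, 5 of 4419 on array 2 and 5 of 5391 on array 3. The genes above it on array 2 were Rprm, Cdh16, Kcnk1 and Esrp1. Those above it on array 3 were Rprm, Kcnk1, Esrp1 and Gsta3. All of these but Kcnk1 lacked a value on at least 1 array.

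The 6 genes next to Pantr1 in rank had a larger spread between arrays. Kcnk1 had 2.38, 3.17 and 3.12 on arrays 1, 2 and 3, a mean of 2.89 ± 0.44, which overlaps Pantr1. Wfdc15b, a protein with a WAP domain, had 2.38, 2.48 and 2.70. All of its arrays lay below the lowest value of Pantr1. Fxyd4, which modulates the sodium-potassium pump, had 1.95, 2.80 and 2.76, so that its highest array reached into the range of Pantr1. The claudin Cldn7 (mean 2.36 ± 0.27) and ccdc198 (2.25 ± 0.17) stayed below Pantr1 on every array, and Gata3 (2.35 ± 0.39), a transcription factor of the ureteric duct, came level with it on array 1 only.

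An SD smaller than that of Pantr1 was found for 49 of the 3915 genes (1.25%), and the median SD was 0.306. Over all 3915 genes, limma (adjusted p below 0.05) called 54 higher, or 1.38%, and 55 lower, or 1.4%. At an unadjusted p below 0.05 it called 8.45% higher and 6.41% lower. Nothing is read from the call of Pantr1, which was chosen on the same values. The median SD of the 54 was 0.263. Of these, S100g, a calcium binder regulated by vitamin D, was the single gene with a smaller SD than Pantr1. S100g had 2.10, 2.10 and 2.07 on the 3 arrays, a mean of 2.09 ± 0.02. A small SD over 3 arrays also favours passing the test, so these genes were not chosen independently of it.

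**Figure D2:**
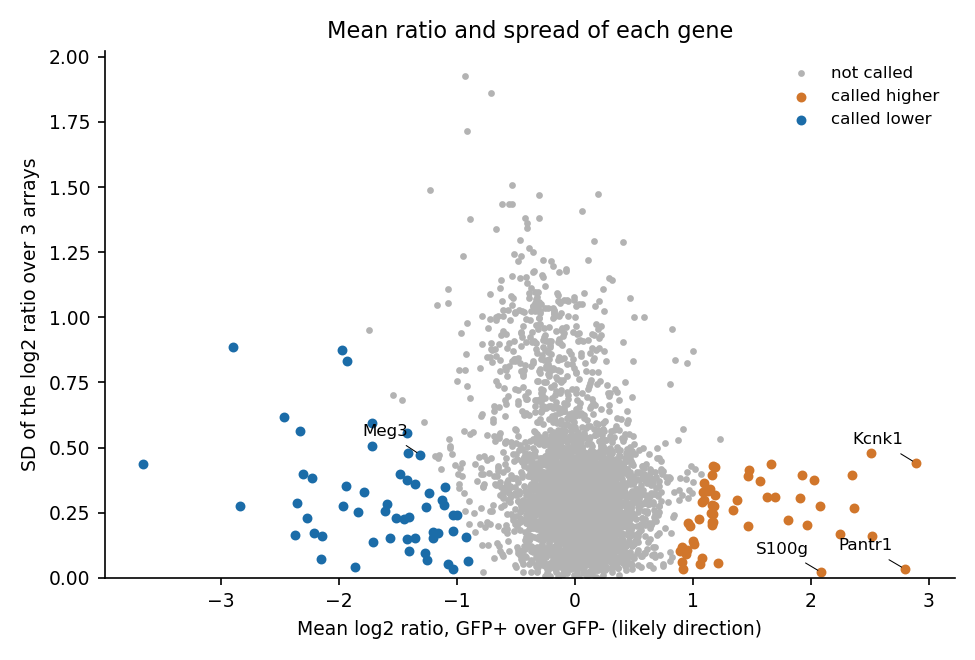
Mean log2 ratio over 3 arrays (x axis) against the SD of that ratio (y axis) for 3915 genes, coloured by the limma call at an adjusted p of 0.05. Pantr1 and S100g lie at the right edge close to the bottom, at SDs of 0.03 and 0.02, and Kcnk1 lies further up at 0.44.

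The genes whose ratios were closest to those of Pantr1 on all 3 arrays were taken by the largest difference on any array. Kcnk1 differed by at most 0.39 and Wfdc15b by at most 0.40 on the log2 scale. Cldn7, ccdc198, S100g and Fxyd4 followed, with differences of at most 0.69, 0.71, 0.73 and 0.82. The likeness rests on 3 arrays of 1 comparison and was not tested.

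Pou3f3 had 1 probe, without a value on array 1, 2 or 3. The deposited values are a filtered set, and no source used here gives the rule behind the filter, so a missing value says nothing about the level of Pou3f3 in either fraction. Missing values were the usual outcome: 9449 of the 15096 genes (62.6%) had none. Of 13130 protein-coding genes by RefSeq type, 59.4% had no value and 28.4% had values on all 3 arrays. Of 1235 genes of RefSeq type lncRNA, 85.6% had no value and 8.50%, or 105 genes, had values on all 3. Pou3f3 thus shared its missing values with most coding genes, while Pantr1 belonged to a small measured group of noncoding genes.

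Around Pou3f3, the 10 genes on each side in the RefSeq table gave a local picture. Of the 21 genes, 7 had a probe, 3 had values and 4 had none. Pantr2 (linc-Brn1b), the noncoding gene on the far side of Pou3f3, had no value on any array, and neither did the noncoding 2900092D14Rik that lies between them. Tgfbrap1, a protein that associates with receptors of the TGF-beta family, was also without a value. No probe was assigned to Gm46091, which starts between Pantr1 and Pou3f3 in the table.

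Of the nearby genes with values, Pantr1 was the single one with a high ratio. Mrps9, a protein of the small subunit of the mitochondrial ribosome, had -0.010, -0.221 and 0.126 on arrays 1, 2 and 3, a mean of -0.035 ± 0.175. Gpr45, an orphan G protein-coupled receptor, had -0.139, 0.140 and -0.019 through 1 of its 2 probes, a mean of -0.0060 ± 0.140. Neither passed (limma adjusted p = 0.936 and 0.989), and on every array both lay at least 2.66 log2 units below Pantr1.

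**Figure D3:**
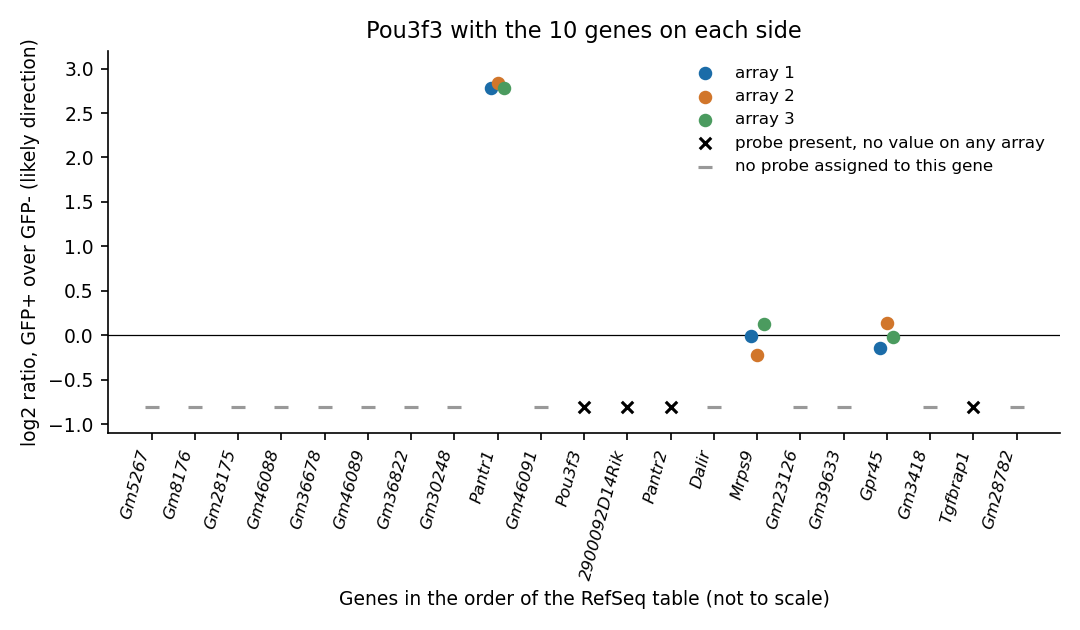
Log2 ratio on each array (y axis, coloured points) for Pou3f3 and the 10 genes on each side in the order of the RefSeq table (x axis, not to scale), with crosses for genes whose probe had no value and dashes for genes without a probe. Pantr1 lies at 2.78 to 2.84, Mrps9 and Gpr45 lie near 0, and Pou3f3, 2900092D14Rik, Pantr2 and Tgfbrap1 carry crosses.

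In the POU family, 10 of 15 listed genes were on the array, 4 had values on all 3 arrays, and 5, Pou3f3 among them, had none. The 4 were Pou2f2, a lymphoid octamer factor, Pou2f3, an octamer factor of epidermis and tuft cells, Pou4f1, a regulator of sensory neurons, and Pou5f2, a gene expressed in testis. All 4 means were positive, as were those of 2148 of all 3915 genes. The 4 had a median of 0.30 against 0.034 over all genes, and 0 of 4 passed in limma, next to 1.38% higher and 1.4% lower over all genes. At an unadjusted p below 0.05, 1 of the 4 was higher, next to 8.45% of all genes. Pou4f1 had 0.22, 0.76 and 0.45 (limma adjusted p = 0.289), and Pou5f2 had 0.82, 0.095 and 0.28 (0.425). Pou2f3 had -0.18, 0.37 and 0.43, with array 1 of the opposite sign, and Pou2f2 had 0.047, 0.14 and 0.26.

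Of the class III POU genes, to which Pou3f3 belongs, Pou3f1 alone had any value. It had 1.498 on array 1, no value on array 2 and -0.58 on array 3, so its sign differed between arrays. Pou3f2 and Pou3f4 had none, like Pou3f3. Without array 1, Pou2f3 and Pou4f1 of the family were higher, and with arrays weighted by their agreement all 4 were. Under those settings, however, 27.6% and 33.4% of all genes were higher. The weights over genes were 0.15, 1.55 and 4.30 for arrays 1, 2 and 3, so the weighted results rest mostly on array 3.

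The distal nephron and loop of Henle list, the segments for which Pou3f3 is known, had 36 of 42 genes on the array, of which 28 had no value and 7 had values on all 3. Among the genes without a value were Umod, the main urinary protein of the thick ascending limb, Slc12a3, the sodium chloride cotransporter of the distal convoluted tubule, the potassium channel Kcnj1, and Lhx1, Irx2 and Irx3, transcription factors of the forming nephron. Of the 7 measured genes, 0 passed in limma in either direction, next to 1.38% higher and 1.4% lower over all genes. At an unadjusted p below 0.05, 1 was higher and 1 lower, next to 8.45% and 6.41% of all genes. Their median was 0.15, against 0.034 over all genes. The loop of Henle was thus hardly covered by these values.

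Hes1 and Hey1, both targets of Notch signalling, lay on opposite sides of 0. Hes1 had 0.17, 0.74 and 0.54 (limma adjusted p = 0.289), and Hey1 had -0.59, -0.64 and -0.44 (0.179). Irx1, an Iroquois factor of the intermediate nephron segment, had -0.0058, 0.81 and 0.39, and the kinase gene Wnk4, which controls distal salt transport, had -0.30, 0.43 and 0.39. Array 1 was thus the lowest for both. Hnf4a, better known from the proximal tubule, had 0.89, -0.41 and -0.035, and Calb2, a calcium-binding protein, 0.19, 0.054 and 0.030. Without array 1, Hes1, Irx1 and Wnk4 were higher and Hey1 was lower, and with array weights 4 were higher and 1 lower, again where 27.6% and 33.4% of all genes were higher and 18.9% and 22.0% lower.

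Among long noncoding RNAs, Pantr1 stood far from the rest. Of 56 listed RNAs, 25 had a probe and 11 had values on all 3 arrays. The choice of Pantr1 was made on its ratio, so its place is a description and it is left out of the counts of calls. Of the other 10, 0 were higher and 1 was lower in limma, Meg3, next to 1.38% and 1.4% of all genes. At an unadjusted p below 0.05, 1 was higher and 2 were lower, next to 8.45% and 6.41% of all genes. Meg3, a maternally expressed imprinted RNA, had -0.84, -1.79 and -1.30, a mean of -1.31 ± 0.47 (adjusted p = 0.0396), negative on all 3 arrays. H19, also imprinted and maternally expressed, had 0.033, -1.63 and -1.16 and did not pass (adjusted p = 0.27).

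Malat1, an abundant nuclear RNA, had 0.58, 1.18 and 0.88, a mean of 0.88 ± 0.30 (limma adjusted p = 0.0732). It was positive on every array but did not pass. Tug1 had -0.094, -0.50 and -0.43, and Snhg3, which hosts small nucleolar RNAs, had 0.48, 0.24 and 0.21. Without array 1, Malat1 and Oip5os1 of the other 10 were higher and H19, Meg3 and Tug1 lower, at a setting where 27.6% of all genes were higher and 18.9% lower. Malat1 passed in limma without array 1 (adjusted p = 0.0026) and not without array 2 or 3 (0.319 and 0.543). The median of the 11, with Pantr1 counted, was -0.017, and it was 0.077 without array 1 and 0.027 with array weights. Its sign is thus not settled. It was not computed without Pantr1, which was chosen for its high ratio, so nothing is read from the change of sign.

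**Figure D4:**
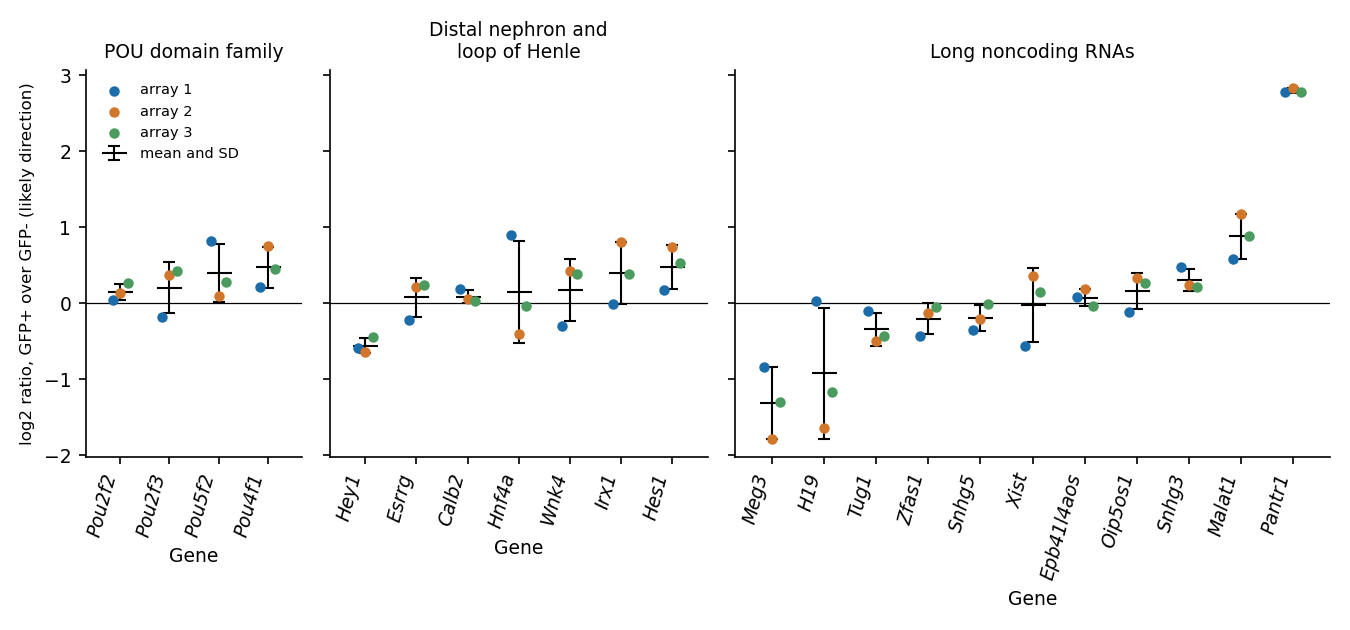
Log2 ratio (y axis) of the measured genes of the POU family, the distal nephron and loop of Henle list and the long noncoding RNA list (x axis), with coloured points for arrays 1 to 3 and black bars for the mean and SD over 3 arrays. Pantr1 at 2.80 lies well above every other gene shown, of which Malat1 comes next at 0.88.

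Taken by RefSeq type instead of by list, a choice made after the data were seen, 105 lncRNA genes had values on all 3 arrays. Pantr1 had the highest mean of the 105, and the next was 1300002E11Rik at 0.96 ± 0.21, which was also higher (limma adjusted p = 0.0439). Leaving Pantr1 out, 1 of 104 was higher and 1 was lower, Meg3, next to 1.38% and 1.4% of all genes. The lowest mean was that of 5430402O13Rik, with -0.84, -2.24 and -1.55 on the 3 arrays (adjusted p = 0.0518), which did not pass. The call of 1300002E11Rik was lost without array 2 or array 3 (limma adjusted p = 0.128 and 0.434), and 5430402O13Rik passed with any 1 array left out (0.0017 to 0.0057). Without array 1, limma called 49 of the 104 higher, a larger share than the 27.6% of all genes. It called 9 lower, a smaller share than the 18.9% of all genes. These differences in share were not tested. The mean of 1300002E11Rik was 1.07 without array 1 and 1.03 with array weights.

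Head-to-head pairs elsewhere on the array give the setting for the pair. Genes on opposite strands whose starts lie within 5000 bases of each other, reading away from each other, formed 697 pairs with a probe for both. Both genes had values on all 3 arrays in 99 pairs. In 218 pairs (31.3%) 1 gene had values on all 3 arrays and its partner had none, which is the state of Pantr1 and Pou3f3. Where 1 gene of the pair was an lncRNA, 30 of 136 pairs had 1 gene measured and the other blank, and both were measured in 8. The 30 include pairs in which the measured gene was the partner of the lncRNA, and they were not split by which gene had values. The strand of Pantr1 is not in the tables used, so its own pair is not counted among the 697.

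Over the 99 measured pairs, the means of the partners differed by a median of 0.22 on the log2 scale, and 3 pairs differed by over 1. On arrays 1, 2 and 3 taken singly the median difference was 0.54, 0.41 and 0.26. The same difference between unrelated genes was not computed. Partners had the same sign in 60 pairs (60.6%), where 2148 of all 3915 genes had a positive mean. The correlation of the partners' means was weak (Pearson's r = 0.077, n = 99 pairs, which share arrays and normalization). On arrays 1, 2 and 3 taken singly it was -0.087, 0.128 and 0.111. A pair counts here if either of its genes passed, whereas the shares over all genes are per gene. At an unadjusted limma p below 0.05, 27 of the 99 pairs counted, next to 8.45% of all genes higher and 6.41% lower. At an adjusted p below 0.05 none of the 99 did in either direction, next to 1.38% and 1.4% of all genes. No measured pair therefore shows what the partner of a gene as high as Pantr1 does on these arrays.

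Cycs and 5430402O13Rik formed the widest pair, named after its values were seen, and it joins a coding and a noncoding gene. Cycs, which encodes cytochrome c, had 0.68, 0.19 and 0.15, while 5430402O13Rik was negative on every array as given above. Their means differed by 1.88, and the groups of 3 arrays did not overlap. The noncoding Tug1 and its partner Morc2a differed less, with means of -0.34 and -0.079. Gata3 is the reverse case of Pantr1. Here the coding gene was measured and high, and its head-to-head noncoding partner 4930412O13Rik had no value on any array.

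**Figure D5:**
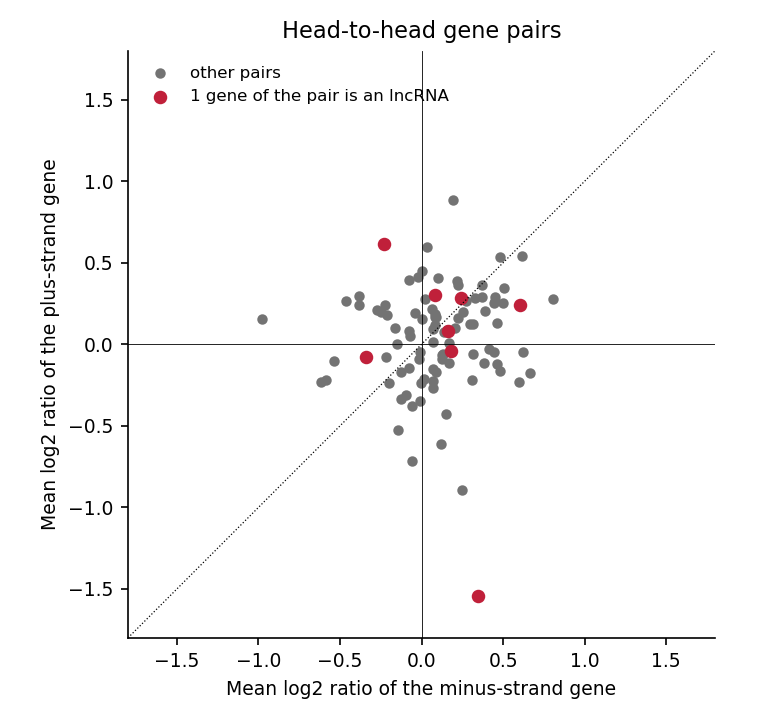
Mean log2 ratio over 3 arrays of the minus-strand gene (x axis) and the plus-strand gene (y axis) for 99 head-to-head pairs, with red points for the 8 pairs in which 1 gene is an lncRNA and a dotted line where both means are equal. In 79 of the 99 pairs both means lie within 0.5 of 0, and the lowest red point is the pair of Cycs and 5430402O13Rik.

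The label of the GFP+ fraction was checked against marker lists, which were chosen with earlier results of these data known. Of 11 measured ureteric epithelium genes 6 were higher and 0 lower (7 and 0 at an unadjusted p below 0.05, by limma). Means were positive for 8 of the 11, with Gata3 and Krt8 positive on all 3 arrays. They were negative for Grhl2 (-0.17), Bcat1 (-0.14) and Rab25 (-0.042). Of 7 measured macrophage and leukocyte genes 6 were lower, and so were 4 of 6 stromal, 3 of 8 cap mesenchyme and 2 of 4 erythroid genes, next to 1.38% higher and 1.4% lower over all genes. Of 12 measured endothelial genes 0 passed in limma, with 0 higher and 3 lower at an unadjusted p below 0.05. At that unadjusted cut, 8.45% of all genes were higher and 6.41% lower. Without array 1, where 27.6% of all genes were higher and 18.9% lower, the cap mesenchyme genes gave 2 higher and 6 lower, the erythroid genes 1 and 3, the early nephron genes 2 and 3, the endothelial genes 0 and 2 and the ureteric genes 8 and 0. Without array 2, 5 cap mesenchyme genes were lower, next to 1.79% of all genes. The median of the early nephron list, cells in which Pou3f3 is also known, was -0.030 over 7 measured genes, and Tubb3 was the only measured nerve and glia gene, at -0.18 ± 0.52. In a sorted bulk fraction, more cells that hold an RNA and more RNA per cell cannot be told apart, so the ratio of Pantr1 does not say which cells of the GFP+ fraction carry it.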

How the data were processed

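Deposited values are log2 ratios of channel 1 to channel 2. Per the labels, images were read with Imagene 5.5, control values were corrected by a Lowess curve using 20.0% of the points at each fit, with 10 as their minimum. The base follows from the deposited log2 values themselves: 2 raised to a value was a whole number of thousandths (within 0.01) for 99.97%. Mean log2 ratios of 4399 probes, and of 3915 genes (the mean of their probes), were compared with 0 by limma 3.58.1, run in R 4.3.3 (lmFit, eBayes, Benjamini-Hochberg, two-sided, adjusted p below 0.05), also on simulated data. Symbols of the platform annotation were updated through gene identifiers to the RefSeq GRCm38.p6 table (16566 probes matched), whose order gave the neighbours. The GFP+ over GFP- direction is likely, not stated. With no dye swap, a dye effect cannot be told apart from a difference between cells. P-values reflect how these 3 arrays differ, a spread that may be technical, and their number limits the precision. Members and lists were chosen with earlier results of these data known. Named genes were both members, the genes up to 5 places from Pantr1 in rank (1 above it and 5 below), the 6 most like Pantr1, measured POU and neighbouring genes, the 6 largest means of the other lists, and Gata3, Krt8 and Wt1 as a label check (Wt1 was lower, mean -1.42). Alternatives were median centring, quantile normalization, values on at least 2 arrays, array weights, and leaving out each array.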

Additional observations from a re-analysis of the deposited data

How the results depend on the processing

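Pantr1 kept a high ratio under every setting that gave it a value: its mean was 2.75 after median centring and 2.87 after quantile normalization, and 2.78 to 2.81 with 1 array left out. It ranked 5 among the 4744 genes with values on at least 2 arrays, where Rprm, Esrp1, Kcnk1 and Cdh16 lay above it, 1 or 2 with 1 array left out, and 1 with arrays 2 and 3 averaged to 1 replicate, a setting chosen after the data were seen. The difference between Pantr1 and Pou3f3 could not be computed under any setting. Counts of calls depended on array 1: with 1 array left out they ran from 23 to 1225 probes and 23 to 1080 genes higher, and from 60 to 810 probes and 51 to 738 genes lower, each highest without array 1, against 58 and 68 probes and 54 and 55 genes. Array weights (limma's gene-by-gene method) gave 1597 and 1015 probes and 1309 and 861 genes. Quantile normalization gave 84 genes lower, and averaging arrays 2 and 3 gave 32 probes and 29 genes higher; the cause was not tested. The median of the noncoding RNA list, with Pantr1 counted, was 0.027 with array weights and ran from -0.18 to 0.077 with 1 array left out. The median difference of head-to-head pairs was also 0.22 for starts within 1000 bases. No paired analysis was possible because the arrays form 1 group. Signal over background is unknown for Pou3f3 and Pantr1 alike, because intensities were not used here.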

Other observations

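Measured lncRNA genes leaned upward as a class, apart from Pantr1. Of the 105 by RefSeq type, 83 had a positive mean, or 82 of 104 when Pantr1 is left out. The median of the 105 was 0.20 (the same rounded value without Pantr1). Of 3725 protein-coding genes, 2004 had a positive mean, with a median of 0.027. The lncRNA medians on arrays 1, 2 and 3 were 0.010, 0.28 and 0.26, against -0.050, 0.083 and 0.076 for coding genes, so the gap was smallest on array 1. This class was looked at after the data were seen and was not tested.

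The design of the array moves with this pattern. The extension set of the oligo collection holds 1239 lncRNA probes, Pantr1's included, and the core set 15, whereas the Pou3f3 probe belongs to the core set. Within the extension set the median was 0.20 over 99 lncRNA probes and 0.062 over 1817 coding probes. In the core set it was -0.18 over 6 lncRNA probes and 0.0013 over 1975 coding probes. In the extension set 86.1% of lncRNA probes and 64.2% of coding probes had no value, against 59.0% of coding probes in the core set. The part of the probe set in the lncRNA pattern was not tested beyond these values.

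Gata3 offered another called gene with a head-to-head partner on the array, and so did 2 lower genes. Sobp (mean -1.03) faces the noncoding 9030612E09Rik, which had a value on 1 array, and Tln1 (-1.59), which encodes talin, faces Creb3, which had none. None of the 3 partners had a complete set of values. This follows from the absence of called genes among the 99 pairs measured on both sides, and it adds nothing to it. Of all genes on the array, 25.9% had values on all 3 arrays.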
